A study of Mus musculus with 12 samples.

Results

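The 41 genes described here encode proteins of DNA replication and of cell division, and were taken by symbol from the deposited table of 55487 genes, in which each symbol occurred once. They were set out in 8 roles. Of these roles 5 belong to replication, with 20 genes, and 3 to division, with 21 genes. Ccne1, whose cyclin acts at entry into replication, was counted with division because its role was that of cyclins and Cdk1. RNA had been sequenced as poly(A)-selected, paired-end libraries from the hearts of wild-type (WT) mice in 4 groups of 3 libraries. Sham mice were operated on without occlusion and drank normal water. I/R mice had the left anterior descending coronary artery, the main vessel of the front of the left ventricle, closed for 45 min and then opened for 24 h of reperfusion, also on normal water. Sham+B12 and I/R+B12 mice underwent the same operations after 7 days of vitamin B12 at 50 mg/L in the drinking water, with a daily intake of 4 mL. The labels give neither strain, sex, age nor the region of the heart taken, and they do not say whether a library is 1 animal, so p-values measure only the spread between these libraries, which may be technical. Expression is in FPKM, the number of fragments per kilobase of transcript and per 1e6 fragments, which corrects for transcript length and library total. A difference is on the log2(FPKM + 1) scale, given with its standard error, from a limma fit of all 12 libraries. A gene was called when its Benjamini-Hochberg adjusted p over all tested genes was under 0.05.

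A cell copies its DNA once in each S phase. The MCM2-7 helicase is loaded on origins during G1, is switched on by Cdc45 and the GINS complex, and unwinds the DNA for polymerases that travel with the sliding clamp PCNA. Division then depends on Cdk1 with cyclins A and B, on kinases such as those of the Aurora and Polo families, and on the motors and kinetochore proteins of the spindle. Genes of replication are textbook targets of E2F factors in late G1, and genes of mitosis are textbook targets of the MuvB complex with B-Myb and FoxM1 in G2, through elements called CHR (cell cycle genes homology region) and CCAAT boxes. Adult cardiomyocytes are largely outside the cell cycle. After an infarct, fibroblasts, endothelial cells and leukocytes are the cells of the heart known to proliferate.

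The promoters of the 2 classes held these motifs in different shares. RefSeq windows on build GRCm38.p6, from 250 bases before to 50 after each transcription start, matched 34 of the 41 genes by symbol, 17 of each class. The E2F-type search used TTTCCCGC, TTTGGCGC, TTTCGCGC and TTTGCCGC on both strands, and found a match in 10 of 17 replication genes (58.8%) and in 1 of 17 division genes (5.88%), Cdk1, against 2.6% of all 27025 genes with a window. The CHR search used TTTGAA and TTCGAA on both strands, and found a match in 12 of 17 division genes (70.6%) and in 4 of 17 replication genes (23.5%), against 21.7% of all genes. CCAAT, also on both strands, was in 82.4% of division genes and 70.6% of replication genes, against 41.1% of all genes. A match is a run of letters and not a shown binding site, and these shares carry no test. The stretches below end at the RefSeq transcription start or before it. They are shown because they carry these matches in capitals, all else being in lower case. In the GENCODE M21 annotation Cdc6 starts earlier, at chr11:98907801, so its stretch lies inside the gene there. The first set is of replication genes with E2F-type matches (Mcm6 at chr1:128359706-128359895, minus strand; Mcm5 at chr8:75109319-75109508, plus strand; Cdc6 at chr11:98907982-98908150, plus strand). The second set is of division genes with CHR and CCAAT matches, of which Cdk1 also has an E2F-type match (Cdk1 at chr10:69352939-69353102, minus strand; Ccnb2 at chr9:70421555-70421744, minus strand; Top2a at chr11:99024190-99024379, minus strand). In Mcm6 and Mcm5 a forward and a reverse E2F-type match overlap, so their capitals run on.
Mcm6: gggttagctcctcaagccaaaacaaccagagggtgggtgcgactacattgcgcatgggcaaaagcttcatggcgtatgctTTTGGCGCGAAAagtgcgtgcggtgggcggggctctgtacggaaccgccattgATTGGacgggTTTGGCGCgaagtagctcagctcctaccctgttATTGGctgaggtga
Mcm5: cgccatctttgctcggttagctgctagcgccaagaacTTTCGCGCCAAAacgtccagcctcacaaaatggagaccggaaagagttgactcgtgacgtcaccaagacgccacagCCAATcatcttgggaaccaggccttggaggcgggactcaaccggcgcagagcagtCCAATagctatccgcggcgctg
Cdc6: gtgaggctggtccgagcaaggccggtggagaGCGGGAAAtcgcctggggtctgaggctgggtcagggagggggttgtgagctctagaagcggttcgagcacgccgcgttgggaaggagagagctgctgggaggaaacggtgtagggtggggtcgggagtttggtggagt
Cdk1: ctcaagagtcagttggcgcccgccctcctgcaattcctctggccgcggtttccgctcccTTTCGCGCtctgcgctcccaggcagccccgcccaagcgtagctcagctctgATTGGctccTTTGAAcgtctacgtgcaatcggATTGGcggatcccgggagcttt
Ccnb2: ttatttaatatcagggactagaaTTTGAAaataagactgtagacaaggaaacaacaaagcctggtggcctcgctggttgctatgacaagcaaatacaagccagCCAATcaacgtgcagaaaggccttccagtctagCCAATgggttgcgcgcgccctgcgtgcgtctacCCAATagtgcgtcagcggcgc
Top2a: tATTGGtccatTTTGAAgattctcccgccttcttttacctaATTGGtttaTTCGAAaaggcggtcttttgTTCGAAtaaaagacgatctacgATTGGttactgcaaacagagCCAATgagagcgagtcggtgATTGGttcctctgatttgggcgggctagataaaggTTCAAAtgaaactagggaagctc
Mcm6 holds 3 E2F-type matches and Top2a 4 CHR matches in the 300-base windows. Top2a also holds 6 CCAAT matches and Cdc6 none.

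Library totals were estimated, from the step between low FPKM values, at 23200000 to 28250000 fragments. For a 3000-nt transcript, 64.3 to 77.4 fragments then make up 1 FPKM and 6.43 to 7.74 fragments 0.1 FPKM, which covers counting error only. The heart label fits the table: 10 cardiomyocyte markers summed to between 35833 and 58463 FPKM in every library. Within the labelled groups, 2 libraries on normal water went against their group. The library labelled Sham 3 had 210.48 FPKM of the injury-induced gene Lcn2, against 5.01 and 3.20 in Sham 1 and 2, and 3156.53 FPKM of the atrial and stress peptide gene Nppa, against 311.79 and 529.89. The library labelled I/R 3 had 9.10 FPKM of the neutrophil gene S100a9 where I/R 1 and 2 had 706.17 and 681.03. Labels were kept as given, and the counts over the 41 genes for the contrasts that use these libraries are also given without them.

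On the log2(FPKM + 1) scale, all 41 genes had a higher mean in I/R than in Sham, and the means of 40 were lower in I/R+B12 than in I/R, but no gene was called in either comparison, and quantile normalization turned Mcm7 in the first and 5 genes in the second. The genes were of low to moderate abundance: mean FPKM over the 12 libraries ran from 0.19 (Bub1, a spindle checkpoint kinase) to 26.3 (Pcna, the sliding clamp). The 41 together summed to 86.4 ± 14.3 FPKM in Sham, 82.3 ± 8.14 in Sham+B12, 149 ± 39.2 in I/R, against 93.6 ± 10.1 in I/R+B12 (SD, n = 3). The 3 I/R sums lay between 119 and 193, above all 9 others, the highest of which was 102 in Sham 2. Fewer proliferating cells and less of these RNAs per cell cannot be told apart in bulk tissue. The filter of an FPKM of 1 in 3 or more libraries passed 31 of the 41. The other 10 were Cdc6, Hells, Ccnb1, Aurka, Plk1, Bub1, Mki67, Kif11, Nusap1 and Cenpe. Pola1 passed only through the 3 I/R libraries, so counts over the 41 genes use a group-blind filter on the mean over all 12 libraries, which keeps all 41 among 15717 genes, while the differences of other single genes, and counts given over tested genes, come from the fit of 13001 genes.

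**Figure D1:**
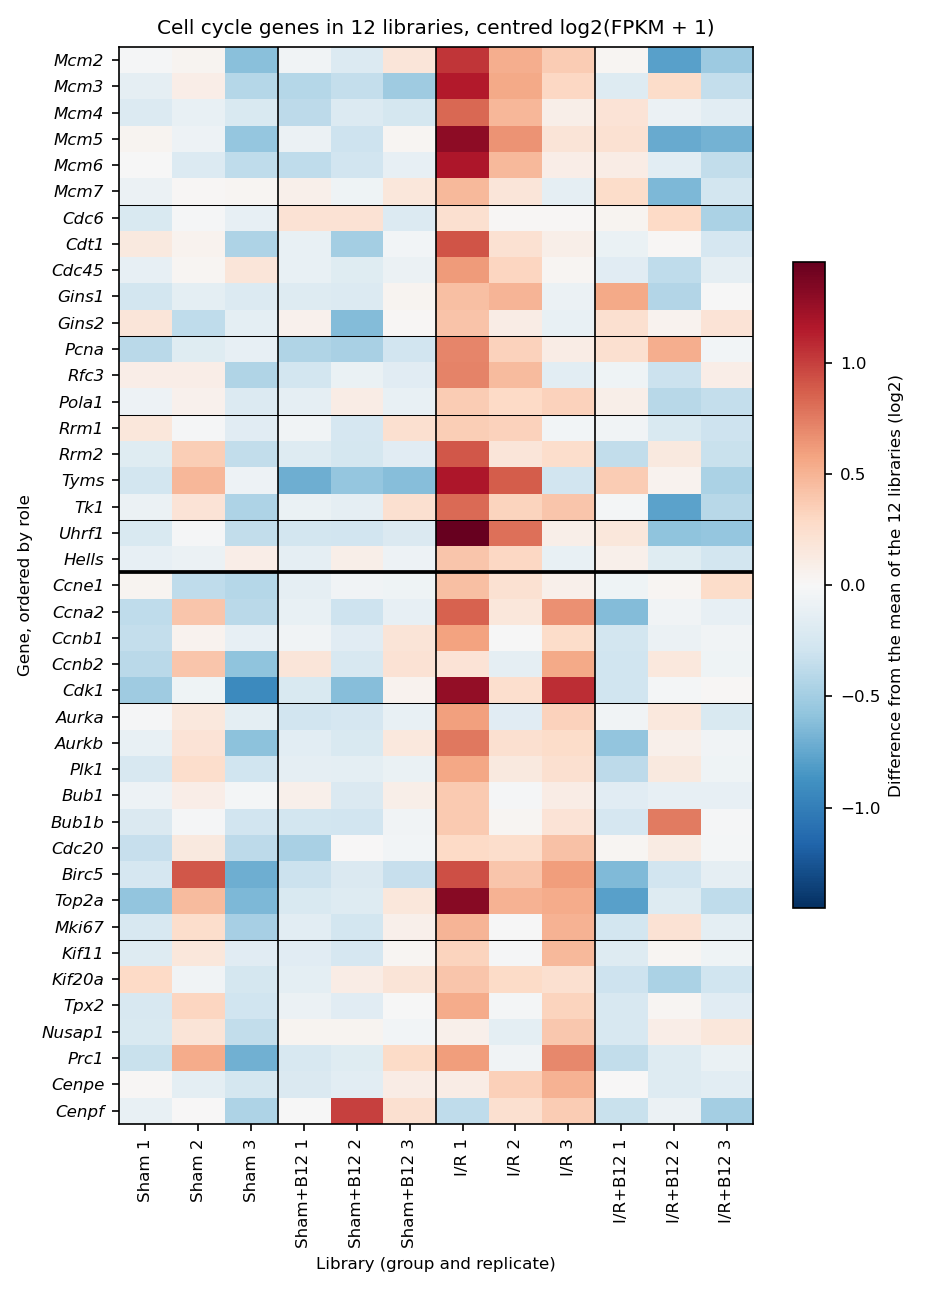
Centred log2(FPKM + 1) of the 41 genes (rows, by role, with replication above the thick line and division below it) in the 12 libraries (columns). Red is above and blue below the gene's mean of the 12 libraries. I/R 1 is the highest library for 30 of the 41 genes, and I/R 3 is redder for division than for replication genes.

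The 6 subunits of the MCM2-7 helicase were together at 26.0, 26.9 and 21.4 FPKM in Sham, 23.6, 22.9 and 25.9 in Sham+B12, 60.0, 39.8 and 30.7 in I/R and 30.3, 21.7 and 20.2 in I/R+B12. The lowest I/R sum was thus above the highest of the other groups by less than 1 FPKM. Mcm3 was at 5.16, 6.18 and 4.04 FPKM in the Sham libraries 1, 2 and 3, at 4.03, 4.30 and 3.69 in Sham+B12, at 13.97, 8.84 and 7.29 in I/R and at 4.91, 7.08 and 4.31 in I/R+B12. Every I/R library was above every other library for this subunit, if narrowly for I/R 3. The values of Mcm6 were 5.39, 4.58 and 3.98 FPKM in Sham, 3.99, 4.28 and 4.91 in Sham+B12, 13.55, 7.91 and 5.89 in I/R and 5.94, 4.76 and 4.00 in I/R+B12. The I/R 3 value was close to that of I/R+B12 1, so I/R and I/R+B12 overlapped, while I/R and Sham did not. For Mcm7, the Sham libraries held 7.07, 7.65 and 7.75 FPKM, Sham+B12 8.01, 7.20 and 8.56, I/R 10.85, 8.68 and 6.82 and I/R+B12 9.32, 4.45 and 6.10. This subunit, the most abundant of the 6, showed the least separation: I/R 3 was below all 3 Sham libraries.

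The ratio of the I/R to the Sham mean was 2.36 for Mcm5, 2.11 for Mcm2, 1.96 for Mcm3 and Mcm6, 1.81 for Mcm4 and 1.17 for Mcm7. On the log2 scale the differences were 0.91 ± 0.31 for Mcm5, 0.84 ± 0.26 for Mcm2, 0.82 ± 0.23 for Mcm3, 0.78 ± 0.24 for Mcm6 and 0.64 ± 0.19 for Mcm4, with adjusted p from 0.378 to 0.392 in limma. That of Mcm7 was 0.18 ± 0.22, and with quantile normalization it went to -0.01. Between I/R+B12 and I/R, Mcm2 had the smallest p of the 6 subunits. It was at 5.31 ± 1.6 FPKM in I/R, against 2.02 ± 0.896 in I/R+B12 (SD, n = 3), a difference of -1.07 ± 0.26 whose limma adjusted p of 0.0788 was the lowest of the 31 tested genes. Mcm5 went from 5.35 ± 2.46 to 1.93 ± 1.18 FPKM, a difference of -1.11 ± 0.31. For Mcm5, I/R+B12 2 and 3 were below all Sham libraries, and for Mcm2 they lay on either side of the lowest, Sham 3. Mcm3, in contrast, had all its I/R+B12 libraries above the Sham+B12 libraries, at 5.43 ± 1.46 against 4.01 ± 0.306 FPKM, and so did Mcm4.

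**Figure D2:**
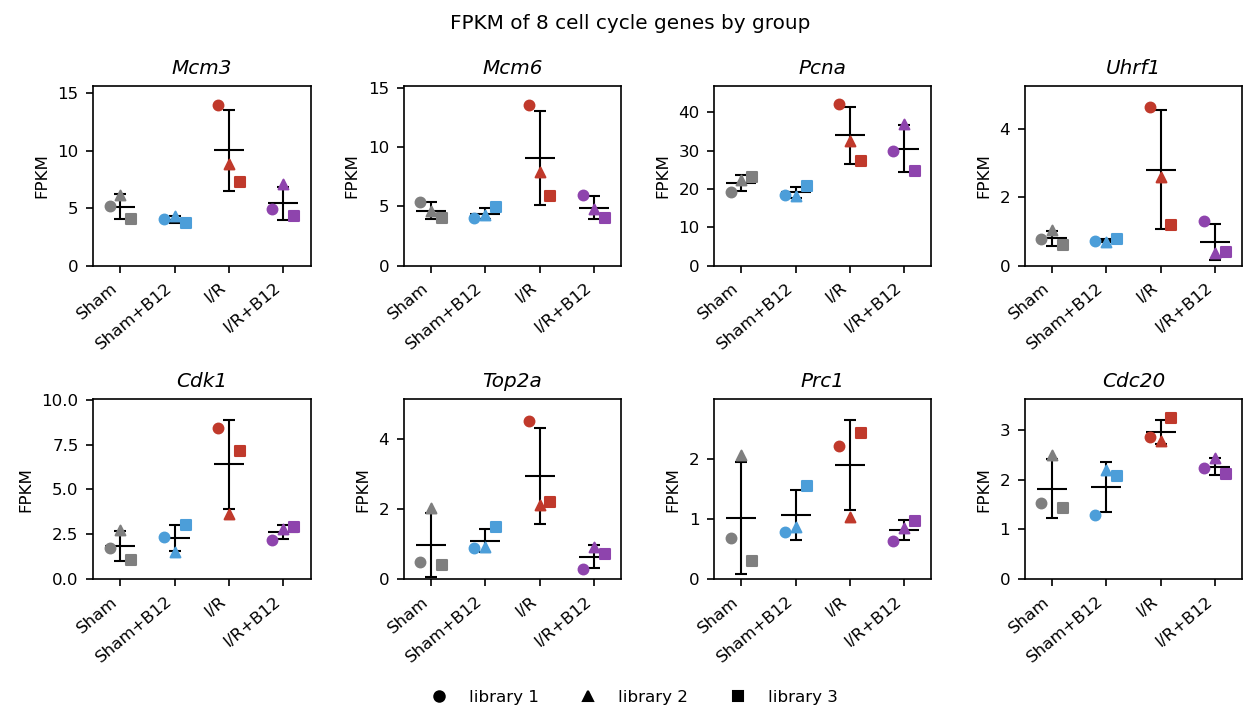
FPKM of 8 genes by group, with a point for each library (circle, triangle and square for libraries 1, 2 and 3), a long bar for the mean and whiskers for the SD of 3 libraries. Mcm3, Mcm6, Pcna and Uhrf1 are replication genes with I/R 3 as the lowest I/R library, whereas Cdk1, Top2a, Prc1 and Cdc20 are division genes with I/R 3 above I/R 2.

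Of the licensing and helicase-activating genes, Cdt1 and Cdc6 load the helicase, and Cdc45, Gins1 and Gins2 are parts of the active helicase. In Sham, Cdt1 stood at 1.88, 1.69 and 0.90 FPKM, against 1.41, 0.84 and 1.53 in Sham+B12, 3.90, 2.04 and 1.75 in I/R and 1.44, 1.64 and 1.20 in I/R+B12. I/R 1 and 2 were above the Sham range, I/R 2 narrowly, and I/R 3 lay inside it. Libraries of Sham gave 1.57, 1.80 and 1.69 FPKM of Gins1, those of Sham+B12 1.71, 1.69 and 2.17, those of I/R 3.20, 3.35 and 1.92 and those of I/R+B12 3.55, 1.31 and 2.09. I/R was above Sham in every library here, but I/R+B12 1 had the highest value of all 12. Gins2 was at 3.08, 1.80 and 2.27 FPKM in the Sham libraries 1, 2 and 3, at 2.77, 1.33 and 2.65 in Sham+B12, at 3.81, 2.90 and 2.36 in I/R and at 3.24, 2.76 and 3.15 in I/R+B12. The Gins2 ranges of all groups overlapped. Its difference between I/R+B12 and I/R was 0.02 ± 0.22, and 0.25 ± 0.22 between I/R and Sham. Cdc45 was at 1.63 ± 0.265 FPKM in Sham, 2.25 ± 0.667 in I/R, against 1.2 ± 0.195 in I/R+B12 (SD, n = 3), and every I/R+B12 library was below every I/R library (difference -0.54 ± 0.17, limma adjusted p 0.0962). Cdc6 did not exceed 0.81 FPKM in any library.

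At the replication fork, Pcna was the most abundant of the 41 genes and the only one called in any of the 5 contrasts. The values of Pcna were 19.16, 22.26 and 23.22 FPKM in Sham, 18.46, 18.07 and 20.80 in Sham+B12, 42.12, 32.38 and 27.34 in I/R and 29.95, 36.89 and 24.61 in I/R+B12. The I/R and I/R+B12 libraries were all above all Sham and Sham+B12 libraries. Pcna (ENSMUSG00000027342, chr2:132249162-132253314, minus strand, mm10) rose from 19.1 ± 1.48 FPKM in Sham+B12 to 30.5 ± 6.16 in I/R+B12 (SD, n = 3), 1.6 times (difference 0.63 ± 0.18, limma adjusted p 0.0485). The difference between I/R and Sham was as large, at 0.61 ± 0.18, with an adjusted p of 0.378. Its call was lost in the group-blind fit (adjusted p 0.0566), with no filter, with quantile normalization, with library weights, with only the compared groups in the fit, and without any 1 of 8 libraries: Sham 1, 2 or 3, Sham+B12 1, 2 or 3, I/R 2 or I/R+B12 2 (adjusted p 0.0531 to 0.153). The call was also lost with no variance trend, with a block for replicate number, and with a mean filter of 0.25 and pseudocount of 0.1. PCNA also serves DNA repair, so its RNA is not a measure of replication alone.

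Rfc3 is a subunit of the factor that loads PCNA on DNA, and Pola1 is the catalytic subunit of the polymerase that primes synthesis. For Rfc3, the Sham libraries held 3.44, 3.43 and 2.07 FPKM, Sham+B12 2.44, 2.89 and 2.70, I/R 5.83, 4.72 and 2.74 and I/R+B12 2.97, 2.34 and 3.45. The I/R and Sham ranges overlapped through I/R 3. In Sham, Pola1 stood at 0.71, 0.89 and 0.57 FPKM, against 0.65, 0.95 and 0.68 in Sham+B12, 1.34, 1.20 and 1.28 in I/R and 0.92, 0.37 and 0.42 in I/R+B12. Although low, Pola1 had 3 close I/R values, all above the other 9 libraries. In the group-blind limma fit its difference between I/R and Sham was 0.40 ± 0.15 (adjusted p 0.429), and that between I/R+B12 and I/R was -0.55 ± 0.15 (adjusted p 0.0986).

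Nucleotide supply is represented by the 2 subunits of ribonucleotide reductase (Rrm1 and Rrm2), thymidylate synthase (Tyms) and thymidine kinase (Tk1). Libraries of Sham gave 6.74, 5.81 and 5.16 FPKM of Rrm1, those of Sham+B12 5.63, 4.82 and 7.09, those of I/R 7.87, 7.69 and 5.72 and those of I/R+B12 5.63, 4.92 and 4.61. For the constitutive subunit Rrm1 the ratio was 1.2 between the I/R and Sham means, whose libraries overlapped, and 0.712 between I/R+B12 and I/R, where every I/R+B12 library was below every I/R library. Tyms was at 2.14, 4.25 and 2.59 FPKM in the Sham libraries 1, 2 and 3, at 1.30, 1.56 and 1.46 in Sham+B12, at 7.48, 5.96 and 2.12 in I/R and at 3.88, 2.91 and 1.73 in I/R+B12. The 3 Sham+B12 libraries were the lowest of all 12, and Tyms was the 1 gene of the 41 whose Sham+B12 and Sham libraries did not overlap (8.28% of the 15717 genes were lower in this way). I/R 3 was below Sham 1 for Tyms. The values of Tk1 were 2.15, 2.83 and 1.45 FPKM in Sham, 2.13, 2.07 and 2.93 in Sham+B12, 4.92, 3.18 and 3.42 in I/R and 2.29, 0.96 and 1.53 in I/R+B12. All I/R libraries were above Sham, and I/R+B12 2 and 3 were near or below the lowest Sham library. The difference of Tk1 between I/R+B12 and I/R was -0.92 ± 0.24 (limma adjusted p 0.0857). Rrm2, the S-phase subunit, was at 1.71 ± 0.728 FPKM in Sham, 2.86 ± 1.13 in I/R, against 1.47 ± 0.497 in I/R+B12 (SD, n = 3).

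Uhrf1 brings the maintenance DNA methyltransferase to newly copied DNA, and Hells is a chromatin remodeller that also acts in DNA methylation. For Uhrf1, the Sham libraries held 0.77, 1.04 and 0.61 FPKM, Sham+B12 0.71, 0.70 and 0.78, I/R 4.65, 2.60 and 1.19 and I/R+B12 1.31, 0.37 and 0.40. The I/R mean was 3.49 times that of Sham. I/R+B12 2 and 3 were the lowest of all 12 libraries. The differences were 0.98 ± 0.31 between I/R and Sham (adjusted p 0.382) and -1.11 ± 0.31 between I/R+B12 and I/R (adjusted p 0.0887), both from limma. In Sham, Hells stood at 0.13, 0.16 and 0.32 FPKM, against 0.12, 0.31 and 0.17 in Sham+B12, 0.63, 0.52 and 0.14 in I/R and 0.29, 0.09 and 0.02 in I/R+B12. No library reached 1 FPKM of Hells. I/R 3 lay within the Sham range for Hells.

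Among the division genes, Cdk1, the kinase that drives entry into mitosis, showed the largest difference between I/R and Sham of the 31 tested genes. Libraries of Sham gave 1.72, 2.73 and 1.05 FPKM of Cdk1, those of Sham+B12 2.33, 1.54 and 3.03, those of I/R 8.41, 3.62 and 7.15 and those of I/R+B12 2.18, 2.80 and 2.92. Each I/R library was above each of the other 9. The I/R mean was 3.49 times the Sham mean (difference 1.36 ± 0.29, unadjusted p 0.000663 and adjusted p 0.378 in limma). The I/R+B12 libraries, from 2.18 to 2.92 FPKM, lay in the range of Sham and Sham+B12 together (difference from I/R of -0.97 ± 0.29, adjusted p 0.0939). Ccna2 was at 0.43, 1.44 and 0.40 FPKM in the Sham libraries 1, 2 and 3, at 0.71, 0.50 and 0.69 in Sham+B12, at 2.33, 1.07 and 1.91 in I/R and at 0.19, 0.78 and 0.70 in I/R+B12. Cyclin A2 pairs with Cdk2 and Cdk1, and its Sham 2 value lay above I/R 2. The values of Ccnb2 were 0.52, 1.64 and 0.33 FPKM in Sham, 1.25, 0.70 and 1.32 in Sham+B12, 1.29, 0.83 and 1.94 in I/R and 0.64, 1.23 and 0.91 in I/R+B12. For cyclin B2 the Sham libraries spanned nearly the range of the whole table, and I/R 1 and 2 were below Sham 2. Ccne1, the cyclin of the G1/S transition, was at 0.62 ± 0.295 FPKM in Sham, 1.26 ± 0.294 in I/R, against 1.01 ± 0.239 in I/R+B12 (SD, n = 3), with no overlap between I/R and Sham. Ccnb1 stayed under 1 FPKM except in I/R 1 (1.29).

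Among the genes of mitotic kinases, the checkpoint and chromosomes, Cdc20 activates the ubiquitin ligase that starts anaphase. For Cdc20, the Sham libraries held 1.52, 2.50 and 1.43 FPKM, Sham+B12 1.28, 2.19 and 2.08, I/R 2.86, 2.77 and 3.24 and I/R+B12 2.23, 2.44 and 2.11. The I/R libraries lay within 0.47 FPKM of each other and above all others. In Sham, Top2a stood at 0.48, 2.04 and 0.40 FPKM, against 0.89, 0.93 and 1.48 in Sham+B12, 4.52, 2.12 and 2.20 in I/R and 0.28, 0.93 and 0.71 in I/R+B12. Topoisomerase II alpha untangles sister chromosomes, and I/R 2 was only 0.08 FPKM above Sham 2. Its mean was 3.03 times higher in I/R than in Sham (difference 1.04 ± 0.32), and its difference between I/R+B12 and I/R was the most negative of the tested genes, at -1.24 ± 0.32 (limma adjusted p 0.0857). Libraries of Sham gave 0.66, 2.67 and 0.20 FPKM of Birc5, those of Sham+B12 0.58, 0.70 and 0.55, those of I/R 2.75, 1.60 and 1.98 and those of I/R+B12 0.26, 0.62 and 0.79. Survivin, the product of Birc5, is a subunit of the chromosomal passenger complex. Its Sham 2 value lay just under I/R 1, the highest of all, and above I/R 2 and 3. Without Sham 2 the Sham values were 0.66 and 0.20.

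The kinase of the same complex, Aurkb, was at 0.653 ± 0.441 FPKM in Sham, 1.46 ± 0.535 in I/R, against 0.62 ± 0.356 in I/R+B12 (SD, n = 3). Bub1b, a checkpoint kinase-like protein, did not follow the others under B12: I/R+B12 2 was its highest library, at 1.94 FPKM, and the difference between I/R+B12 and I/R was -0.04 ± 0.24. Mki67, whose protein Ki-67 is the usual marker of proliferating cells, was at 0.36, 0.91 and 0.14 FPKM in Sham, 0.43, 0.32 and 0.68 in Sham+B12, 1.24, 0.59 and 1.27 in I/R and 0.33, 0.84 and 0.45 in I/R+B12. Sham 2 was above I/R 2 for this marker as well. Aurka, Plk1 and Bub1 were low throughout, and their highest values, 1.57, 1.11 and 0.54 FPKM, were all in I/R 1.

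Of the spindle genes, Prc1 bundles microtubules of the midzone and Kif20a is a motor of the same structure. Prc1 was at 0.68, 2.07 and 0.30 FPKM in the Sham libraries 1, 2 and 3, at 0.79, 0.86 and 1.55 in Sham+B12, at 2.21, 1.04 and 2.43 in I/R and at 0.64, 0.85 and 0.97 in I/R+B12. The highest Prc1 values were of I/R 3 and I/R 1, with Sham 2 next. The values of Kif20a were 1.19, 0.73 and 0.51 FPKM in Sham, 0.63, 0.94 and 1.04 in Sham+B12, 1.38, 1.18 and 1.11 in I/R and 0.46, 0.31 and 0.47 in I/R+B12. The 3 I/R+B12 libraries were the lowest 3 of all 12, and I/R 1 was the highest, with Sham 1 between I/R 1 and I/R 2. The difference of Kif20a from I/R was -0.65 ± 0.17 (adjusted p 0.0857) and from Sham+B12 -0.40 ± 0.17 (adjusted p 0.142), both from limma. For Cenpf, the Sham libraries held 0.62, 0.75 and 0.28 FPKM, Sham+B12 0.74, 2.49 and 1.05, I/R 0.35, 1.05 and 1.25 and I/R+B12 0.40, 0.65 and 0.24. Cenpf encodes a kinetochore and matrix protein of G2 and M phase. It did not follow this order: I/R 1 was among its lowest libraries and Sham+B12 2 was its highest. Tpx2, a spindle assembly factor, was at 0.623 ± 0.396 FPKM in Sham, 1.05 ± 0.396 in I/R, against 0.54 ± 0.151 in I/R+B12 (SD, n = 3). Kif11, Nusap1 and Cenpe stayed below 1 FPKM in all libraries, and the highest value of each was in I/R 3 (0.80, 0.92 and 0.73 FPKM).

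**Figure D3:**
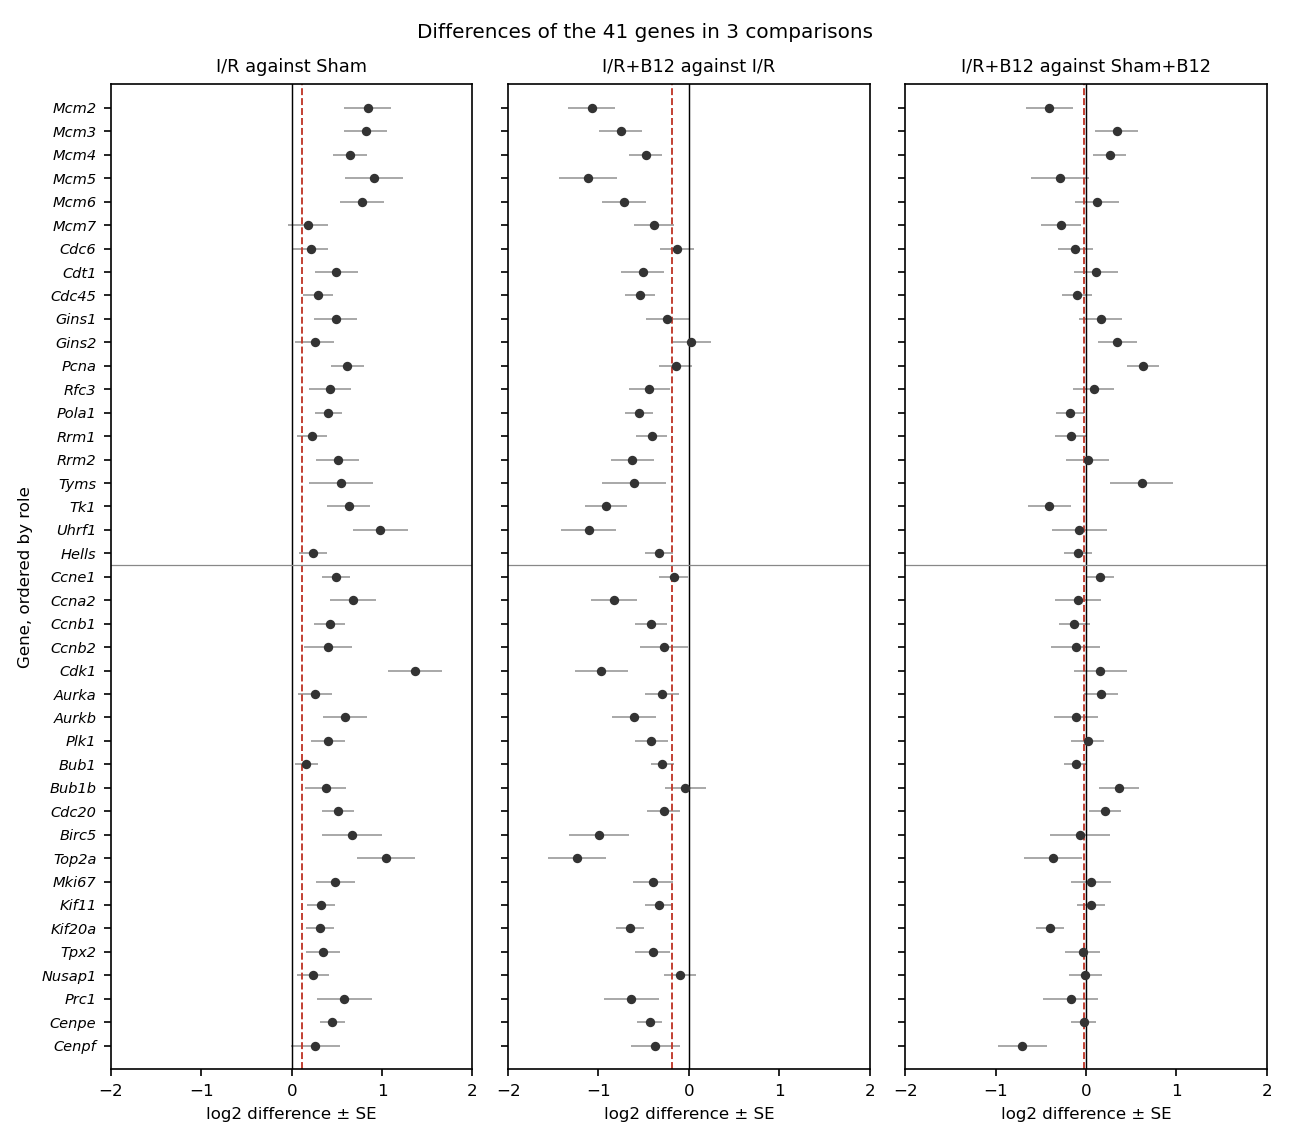
Differences on the log2(FPKM + 1) scale with standard errors (bars) for the 41 genes in 3 comparisons, from the group-blind limma fit. The dashed line is the median of the 15717 genes, at 0.11, -0.18 and -0.02. All 41 points lie above 0 in the first panel, 40 lie below 0 in the second and they lie on both sides in the third.

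Counted over the comparison of I/R with Sham, which asks what 45 min of ischemia and 24 h of reperfusion did on normal water, 41 of 41 differences were positive, where 67.6% of the 15717 genes had a positive mean difference. None was called, and none of the 15717 genes was (0%). At an unadjusted p under 0.05, 18 of 41 were higher and 0 lower, against 9.9% and 1.16% of all genes. The I/R libraries did not overlap the Sham libraries, and were higher, for 18 of 41 genes, against 17.2% of all genes. The median difference was 0.48, beside 0.11 for all genes. The 20 replication genes made up 11 of the 18 without overlap and the 21 division genes 7. The MCM genes made up 5. With Sham 3 and I/R 3 left out, 39 of 41 differences were positive and the median was 0.43 (0.14 for all genes). Then 18 of 20 replication and 7 of 21 division genes did not overlap, against 43.3% of all genes. Without I/R 1, all 41 stayed positive, with a median of 0.39 (0.09 for all genes) and no overlap for 19, against 20.2%. With quantile normalization 30 of the 31 tested genes were positive, the exception being Mcm7.

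The comparison of I/R+B12 with I/R asks what B12 changed in injured hearts. Of the 41 differences, 40 were negative, against 70.5% of all genes, and Gins2 was the exception (0.02). None was called, and none of all genes (0%). At an unadjusted p under 0.05, 21 were lower and 0 higher, against 22.6% and 3.89% of all genes. The I/R+B12 libraries did not overlap those of I/R, and were lower, for 19 genes, against 18.2% of all genes. The median difference was -0.43, beside -0.18. The table as a whole was also shifted: with median-ratio scaling the median of all tested genes moved from -0.21 to -0.04 (from 0.13 to 0.01 in I/R against Sham), and that of the 31 tested genes described here from -0.55 to -0.45. With quantile normalization 6 of these 31 were positive: Gins1, Gins2, Ccne1, Ccnb2, Bub1b and Cdc20. With median-ratio scaling Gins2, Pcna and Bub1b were. Without Sham 3 and I/R 3, 40 of 41 were negative (11436 of the 15717 genes), with a median of -0.54 (-0.20 for all genes). Lower without overlap were then 26 of 41, against 4561 of the 15717 genes. These 26 were 15 of 20 replication and 11 of 21 division genes. Without I/R 1 the median over the 41 was -0.32 (-0.16). I/R+B12 1 was closest across the table to I/R 1 and I/R 2 (r across genes of 0.979 and 0.978). This library had an r of 0.969 with Sham 3, 0.951 with I/R 3, and 0.936 and 0.946 with the others of its group. Without it, 11 of the 31 tested genes were called lower, where 30.3% of all tested genes were: Mcm2, Mcm4, Mcm5, Mcm6, Mcm7, Cdc45, Tk1, Uhrf1, Top2a, Kif20a and Pola1, the last of which had entered the test only through its I/R libraries.

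The comparison of Sham+B12 with Sham asks what B12 changed without ischemia. Of the 41 differences between Sham+B12 and Sham, 20 were positive and 21 negative, none had an unadjusted p under 0.05 and the median was -0.0038. None was called, as for all genes (0%). Of all genes 65.4% were negative. Without Sham 3, 10 of the 41 were positive and 31 negative (65.1% of all genes negative), with a median of -0.09 beside -0.06 for all genes. The Sham+B12 libraries were then lower without overlap for 5 of the 41, against 15.7% of all genes. Between I/R+B12 and Sham+B12, 18 were positive and 23 negative, with a median of -0.04 beside -0.02 for all genes. Of the 13001 tested genes 10.4% passed here, 6.78% upward and 3.62% downward, and Pcna was the 1 such gene among the 31. The number of calls changed with the libraries in the fit. Of all tested genes 1352 were called, but 0 when Sham+B12 1 or 3 was left out and 32 for Sham+B12 2. The number was 49 when I/R+B12 2 was left out, 644 for I/R 2, 838 for Sham 2, 892 for Sham 1 and 914 for I/R 1. It was 1449 for Sham 3, 1545 for I/R 3, 1586 for I/R+B12 3 and 3833 for I/R+B12 1. Leaving out a library also makes its group smaller, and the cause of these changes was not tested. In the group-blind fit, 0 of the 41 were called, against 6.89% of all genes (4.58% higher, 2.31% lower). Higher without overlap were Mcm3, Mcm4, Pcna and Tyms, 4 of 41 against 17.3% of all genes, and lower without overlap were Kif20a and Cenpf, 2 of 41 against 12.8%. Without I/R+B12 1 these counts went to 8 of 41 higher and 9 of 41 lower, against 20.5% and 33.9% of all genes, and 7 of the 9 were replication genes. I/R with Sham and I/R+B12 with I/R share the I/R libraries, so the opposite signs in the 2 comparisons are not independent. The interaction (the difference of I/R+B12 from Sham+B12, less the difference of I/R from Sham) was negative for 38 of 41, with a median of -0.43 beside -0.13 for all genes. Without Sham 3 and I/R 3 it was also negative for 38 (median -0.43, beside -0.16), and without I/R 1 for 36 (-0.31, beside -0.11). None was called (0% of all genes), and 11 were lower and 0 higher at an unadjusted p under 0.05, against 8.33% and 3.38% of the 15717 genes. Of the 13001 tested genes 8.86% were lower and 3.41% higher at that p.

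The largest of the interactions among tested genes were those of Top2a (-1.41 ± 0.46), Mcm2 (-1.25 ± 0.36), Cdk1 (-1.21 ± 0.41), Mcm5 (-1.20 ± 0.45), Uhrf1 (-1.05 ± 0.44) and Tk1 (-1.03 ± 0.33). Their adjusted p in limma ran from 0.387 to 0.401, and their unadjusted p from 0.0055 to 0.0346. The ratio of the I/R+B12 to the Sham+B12 mean ran in these 6 genes from 0.582 (Top2a) to 1.14 (Cdk1), and that of I/R to Sham from 1.79 (Tk1) to 3.49 (Cdk1 and Uhrf1). Tyms, Gins2 and Pcna had interactions above 0.

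Replication and division genes ordered the libraries of I/R and of I/R+B12 differently. A score for each class is the mean over its genes of log2(FPKM + 1), each gene centred on its 12 libraries. The replication score was 0.78, 0.40 and 0.07 in I/R 1, 2 and 3, and the division score 0.51, 0.12 and 0.42. I/R 3 was thus the lowest I/R library for replication and the middle one for division. Gene by gene, I/R 3 was above I/R 2 for 3 of 20 replication genes and 19 of 21 division genes, against 41.5% of the 15717 genes. It was the lowest of the I/R libraries for 16 of 20 and 2 of 21 (48.2% of all genes). I/R 1 was the highest of the 12 libraries for 18 of 20 replication and 12 of 21 division genes (20.3% of all genes), and I/R 3 for 0 of 20 and 7 of 21 (10.2%). In Sham both scores gave the same order, and Sham 2 was the highest of its group for 10 of 20 replication and 18 of 21 division genes (36.3% of all genes), and Sham 3 the lowest for 12 of 20 and 18 of 21 (36.4%). In I/R+B12, library 1 was the highest of its group for 13 of 20 replication genes and the lowest for 16 of 21 division genes (55.1% and 17.2% of all genes). The division scores of Sham 1, 2 and 3 were -0.21, 0.19 and -0.40, a range wider than that of the 3 I/R libraries. Genes within a class share the libraries, so these counts describe 12 libraries and are not 41 separate observations.

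**Figure D4:**
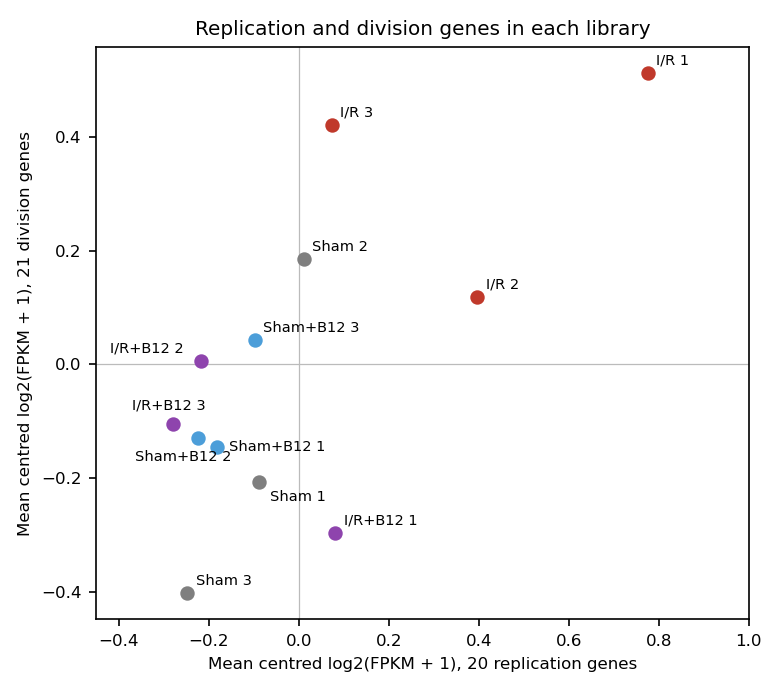
Replication score (x axis, 20 genes) against division score (y axis, 21 genes) of each library, both in log2 units, coloured by group. I/R 1 is high on both axes, I/R 3 is near 0 on the x axis and at 0.42 on the y axis, and Sham 2 (0.01 and 0.19) lies above the other Sham libraries on the y axis.

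Marker lists of other cells also differed between the libraries of a group. The score of 8 neutrophil genes was 2.92 and 2.62 in I/R 1 and 2 but -1.83 in I/R 3, with summed levels of 1276, 1228 and 15.1 FPKM, and that of 10 inflammatory monocyte and macrophage genes was 2.58, 2.22 and -0.89. So the I/R library with the fewest leukocyte transcripts had the lowest replication score of its group and a division score near the highest. In I/R+B12 both leukocyte lists were high in libraries 1 and 2 (neutrophil scores of 2.57 and 3.63, against 0.17 in library 3) while the replication scores were 0.08, -0.22 and -0.28. Sham 3, with a neutrophil score of -0.23 against -2.12 and -1.85 in Sham 1 and 2, had the lowest scores of its group for both classes. The 8 fibroblast genes scored 0.78, 0.49 and 0.55 in I/R, -0.07, 0.52 and 0.12 in Sham, -0.49, -0.15 and -0.11 in Sham+B12 and -0.27, -0.73 and -0.62 in I/R+B12, with Sham 2 at the level of the I/R libraries. The 11 resident macrophage genes scored 0.52, 0.42 and 0.21 in I/R, and 0.20, -0.93 and -0.87 in I/R+B12. Not every list fell with B12 after injury. The endothelial genes had a mean score of 0.16 ± 0.11 for I/R+B12, beside 0.09 ± 0.05 for I/R (SD, n = 3), with overlapping libraries. Their mean scores for Sham+B12 and Sham were -0.12 ± 0.15 and -0.13 ± 0.20. The part of these cells in the results above was not tested. The 9 immature neutrophil genes summed to 0.54 to 20.3 FPKM in Sham, 0.04 to 1.84 in Sham+B12, 2.32 to 82.9 in I/R and 5.49 to 151 in I/R+B12. Of these Elane, Mpo and Ctsg stayed below 1 FPKM in every library, while Chil3 and Ngp reached 120.31 and 82.61. The 8 T and NK cell genes summed to 0.75 to 5.99 FPKM in Sham, 1.46 to 3.5 in Sham+B12, 3.32 to 4.92 in I/R and 0.52 to 1.42 in I/R+B12, with Cd3e, Cd3d, Cd8a and Klrb1c below 1 FPKM everywhere. No marker of any list was at 0 in all libraries.

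**Figure D5:**
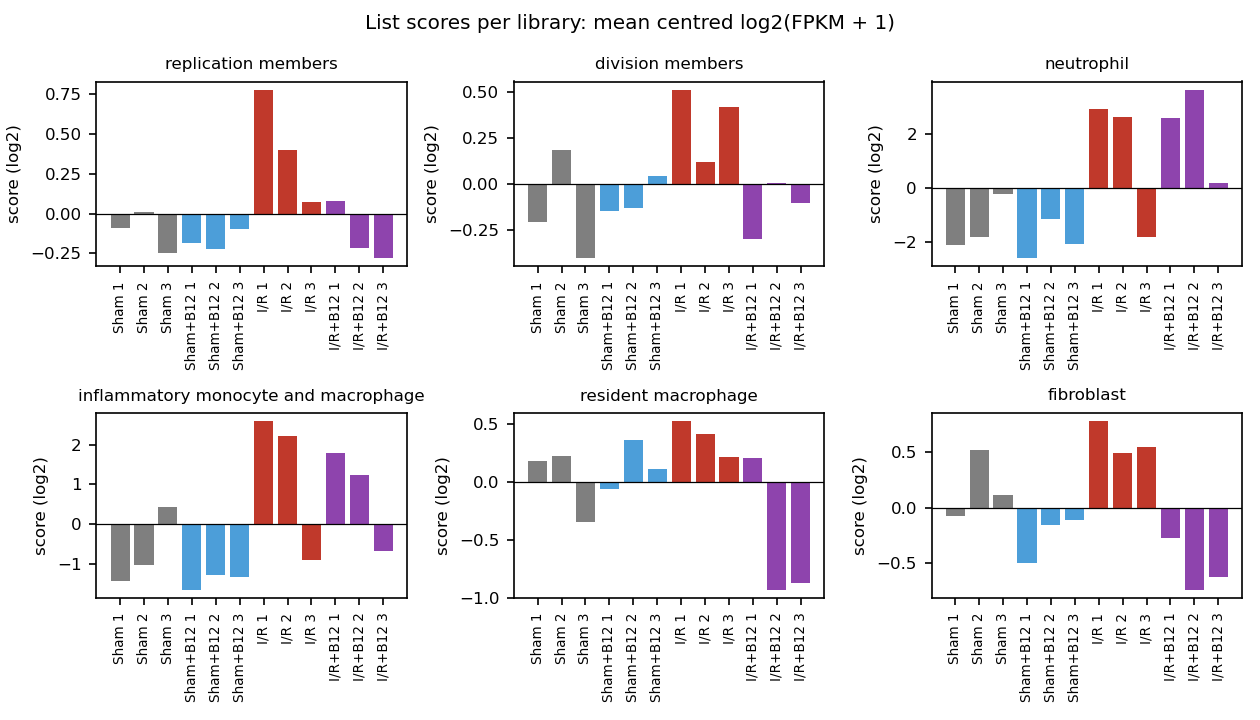
Scores (mean centred log2(FPKM + 1), in log2 units) of the replication and division genes and of 4 cell type marker lists, as a bar for each library coloured by group. I/R 3 is low for neutrophil and inflammatory monocyte genes (-1.83 and -0.89) and high for division genes (0.42), and the fibroblast bars are highest in I/R and Sham 2.

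Other genes of the pathway were taken from 6 lists. Counts here are over tested genes, and a gene can enter the test through the 3 I/R libraries alone. That favours genes high in I/R, and which of the listed genes entered in this way was not checked. Of all tested genes 69.1% had a positive difference in I/R against Sham (median 0.13). In I/R+B12 against I/R 28.2% were positive (median -0.21). Of 39 further replication genes 31 were tested, and 27 had a positive difference between I/R and Sham (median 0.35), 7 of them with an unadjusted p under 0.05 against 10.6% of all tested genes. The smallest p were those of the primase subunit Prim1 (0.77 ± 0.23), Tipin (0.57 ± 0.18) and the origin recognition subunit Orc6 (0.53 ± 0.17). Between I/R+B12 and I/R, 28 of these 31 were negative (median -0.40) and 11 were lower at that p, against 24.6% of all tested genes, led by the DNA ligase Lig1 (-1.02 ± 0.21). Of 39 further mitotic genes 24 were tested, and 22 were positive in I/R against Sham (median 0.40), 10 of them at an unadjusted p under 0.05. The spindle checkpoint gene Mad2l1 was at 1.76, 1.68 and 1.28 FPKM in Sham, 1.31, 1.20 and 1.44 in Sham+B12, 2.74, 2.63 and 2.63 in I/R, and 1.62, 1.23 and 1.62 in I/R+B12. Its I/R libraries were thus alike and apart from all others, including I/R 3 (difference of 0.52 ± 0.14 from Sham, limma adjusted p 0.378). Under B12, 23 of the 24 were negative in I/R+B12 against I/R (median -0.47), and the kinetochore gene Spc24 fell by 0.96 from Sham+B12 to I/R+B12 (adjusted p 0.0282 in limma), from 5.47, 6.40 and 7.80 to 2.61, 2.60 and 3.43 FPKM. It was the 1 called gene of the 2 lists in any comparison, where 10.4% of all tested genes were called, and with Sham+B12 1 or 3 left out no gene was.

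The regulators of the cell cycle made up the other lists. Of 19 E2F, RB and DREAM genes 15 were tested, with medians of 0.10 in I/R against Sham and -0.06 between I/R+B12 and I/R. For all tested genes these medians were 0.13 and -0.21. In the group-blind limma fit, which kept all 19, the medians were 0.15 and -0.24, beside 0.11 and -0.18 for the 15717 genes. There 6 of the 19 were higher in I/R than in Sham at an unadjusted p under 0.05, against 1556 of the 15717. At that p 4 were lower in I/R+B12 than in I/R, against 3557 of the 15717. The activator E2f1 had 1.05, 0.89 and 0.50 FPKM in Sham, 0.52, 0.59 and 0.63 in Sham+B12, 2.19, 1.19 and 1.34 in I/R, and 0.82, 0.42 and 0.16 in I/R+B12. Its I/R libraries were the highest 3 of the table (0.50 ± 0.21 from Sham, limma adjusted p 0.423), and the difference between I/R+B12 and I/R was -0.82 ± 0.21 (adjusted p 0.0857). Of 7 inhibitors of cyclin-dependent kinases 5 were tested and 2 were called, both between I/R+B12 and Sham+B12, where 10.4% of all tested genes were and where no gene was without Sham+B12 1 or without Sham+B12 3. Cdkn1a, the gene of p21, which blocks cyclin-dependent kinases and binds PCNA, rose by 3.65 ± 0.91 (adjusted p 0.0362 in limma). It was at 16.25, 19.07 and 12.86 FPKM in Sham+B12 and 63.00, 359.57 and 410.34 in I/R+B12, against 40.34, 30.95 and 10.44 in I/R and 11.05, 6.72 and 93.65 in Sham. The highest Cdkn1a values were those of I/R+B12 2 and 3. Library 1 of this group, with the least Cdkn1a, was its highest for 13 of 20 replication genes, near the 55.1% of all genes. It was the lowest of the group for 16 of 21 division genes (17.2% of all genes). In I/R, Cdkn1a and the replication score were both highest in library 1 and lowest in library 3. Sham 3 had the most Cdkn1a of its group and the lowest replication score. A link of these genes to Cdkn1a was not tested. Cdkn1c, the gene of p57, fell by 1.28 (adjusted p 0.0388), from 25.76, 37.92 and 25.69 to 16.87, 8.11 and 11.02 FPKM. Of 8 D cyclins, G1 kinases and related genes 7 were tested, and Cdk4 had the smallest p in I/R+B12 against I/R (-0.72 ± 0.17, adjusted p 0.0788). Of 12 DNA damage checkpoint genes 10 were tested and none was called in the 5 contrasts, with medians of 0.20 in I/R against Sham and -0.14 in I/R+B12 against I/R.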

How the data were processed

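The authors deposited 1 table of FPKM values per gene for the 12 libraries, made with HISAT2 and StringTie on mm10, per the submitters' processing notes, which give no versions. The annotation release is not given in the sources used here. FPKM was not converted to counts. Values were tested as log2(FPKM + 1) by limma (version 3.58.1, run under R 4.3.3), whose 1 fit held all 12 libraries, their 4 group means and a variance trend. The 13001 genes tested reached an FPKM of 1 in 3 libraries or more. Adjusted p are Benjamini-Hochberg values over all tested genes, called under 0.05. A pseudocount of 1 understates fold changes of low genes. The fitting script was tested on simulated data.

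In each role, up to 3 genes with the highest mean FPKM, and any called gene, are given in full. In each pathway list and comparison, genes were named from those with the smallest p and from called genes. Ccnb1, Mki67 and the other genes given in part were chosen after their values were seen, as were the calls named without a library. The genes and lists were chosen with earlier results of these data known. Replicate numbers come from the sample titles and state no pairing. Alternatives covered the pseudocount, filter, scaling, variance model, replicate block and left-out libraries. Leaving out the libraries Sham 3 and I/R 3 together, and the filter on the mean of the lowest of the 41 genes, were added after seeing the data.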

Additional observations from a re-analysis of the deposited data

How the results depend on the processing

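The median of the 31 tested genes was 0.51 in I/R against Sham. It was 0.77 with a pseudocount of 0.1, 0.78 with that pseudocount and a filter on a mean FPKM of 0.25, 0.31 with quantile normalization, and 0.38 to 0.69 with 1 library left out, the highest without Sham 2. For I/R+B12 against I/R it was -0.55, and under the same alternatives -0.82, -0.82, -0.23 and -0.69 to -0.41. For the interaction it was -0.49, and then -0.74, -0.79, -0.31 and -0.65 to -0.34. For I/R+B12 against Sham+B12 it was -0.06, and 0.12 with a filter at FPKM 5, where fewer genes were tested. Library weights, whose estimation stopped before its tolerance was met, called 16 of the 31 in I/R against Sham (27.2% of all tested genes were called higher), 13 in I/R+B12 against I/R (29% lower) and 4 in the interaction (11.7% lower). Without I/R+B12 1, 11 and 4 were called in the latter 2, and with any other single library left out the number was 0, so the ranges were 0 to 11 and 0 to 4. The cause was not tested.

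The 1 call of I/R+B12 against Sham+B12, Pcna, went to 0 with no filter, with a mean filter of 0.25 and pseudocount of 0.1, with quantile normalization, with only the compared groups, with no variance trend, with library weights and with the mean filter of the lowest gene. With 1 library left out the count ranged from 0 to 1. It also went to 0 with the replicate block. Libraries with the same number did not deviate together (mean r 0.0144 over 18 pairs, -0.412 to 0.391, against -0.00868 over 36 other pairs), so the block rests on a shared number only.

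Signs turned for small differences. For I/R against Sham, Mcm7 went to -0.0079 (quantile) and Cenpf to -0.017 (without Sham 3 and I/R 3). In I/R+B12 against I/R, quantile normalization gave 0.069 for Gins1, 0.15 for Ccne1, 0.053 for Ccnb2, 0.30 for Bub1b and 0.029 for Cdc20. Median-ratio scaling gave 0.050 for Pcna and 0.082 for Bub1b, and library weights gave 0.022 for Ccnb2 and 0.046 for Bub1b. Over single libraries left out, Pcna was lowest at -0.29, leaving out I/R+B12 2, and highest at 0.015, leaving out I/R 1. Gins2 was at -0.099 without I/R 3, with or without Sham 3, and -0.0107 without I/R+B12 1. Bub1b ran from -0.13 (without I/R 2) to 0.16 (without I/R+B12 1), and was at 0.051 without I/R+B12 3. In I/R+B12 against Sham+B12, Cdk1 ran from -0.018 (without Sham+B12 2) to 0.32 (without Sham+B12 3). Uhrf1 was at 0.029 (quantile), and with 1 of the 3 I/R+B12 libraries left out it was at -0.32, 0.056 and 0.041. Of the other values for single genes, 1834 kept their sign and side of the threshold, 48 passed it and 16 no longer did. The fit of only the compared groups could not be run for the interaction. Counting error limits genes under about 0.1 FPKM.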
